A study of Mus musculus with 28 samples.

Results

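The 8 mouse genes of the CIDE family (Cidea, Cideb, Cidec) and the perilipin family (Plin1 to Plin5) were taken by symbol from the deposited tables and followed in liver and muscle. They are 8 of the 54163 genes listed for liver at 40 d, of 54189 for muscle at 40 d and of 54501 at 24 h. The source was male mice of the Lepob/Lepob C57BL/6J genotype, which lack working leptin and become obese. They were put on the AMLN diet at 4 weeks of age and kept on it for 20 weeks and then through the treatment, a regime used to model fatty liver with inflammation. Fat gives 40% and fructose 20% of the calories of this diet, which also holds 2% cholesterol by weight. Treated mice were given aspirin (acetylsalicylate, 3.0 mg/kg), an inhibitor of cyclooxygenases, together with trimetazidine (5.0 mg/kg), an inhibitor of mitochondrial fatty acid oxidation. Both drugs went into the peritoneum each day, and vehicle mice received the solvent alone. Genotype and diet were shared by all groups, so neither a lean mouse nor a mouse on chow stands beside them. At 40 d there were 6 treated and 6 vehicle livers and 6 treated and 6 vehicle muscles, and at 24 h after injection there was 1 library of each tissue for treated and for vehicle. The labels do not name the muscle, and do not say whether libraries at 24 h pooled animals.

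Fat inside a cell is stored as lipid droplets, a core of triglyceride and cholesterol ester under a single layer of phospholipid. Perilipins coat that surface and set how far lipases reach the core, while CIDE proteins gather where droplets touch and move lipid from the smaller into the larger, so that cells rich in them hold large droplets. In lean liver Plin2 and Cideb are the usual members, whereas Cidea and Cidec are genes of brown and white fat whose hepatic expression is known to appear when the liver becomes fatty.

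The genes lie on 6 chromosomes (coordinates on GRCm38, from the deposited tables). The CIDE genes are Cidea at chr18:67343564-67367794 on the plus strand, Cideb at chr14:55754050-55758458 and Cidec at chr6:113424634-113435760, both on the minus strand. Of the perilipins, Plin1 is at chr7:79720218-79732903 and Plin2 at chr4:86648386-86670060, both on the minus strand. Plin4, Plin5 and Plin3 follow one another on the minus strand of chromosome 17, at chr17:56100591-56109803, chr17:56111601-56117596 and chr17:56278962-56290511. Plin4 ends 1797 bases from Plin5, and 161365 bases separate Plin5 from Plin3. Cideb shares 1136 of its 1488 exonic bases (76.3%) with Nop9, a gene on the opposite strand. No source used here tells whether counting went by strand, nor how reads on shared bases were assigned. Nop9 stood at 6.13 FPKM in treated and 5.68 FPKM in vehicle livers and at 5.09 FPKM in treated and 5.02 FPKM in vehicle muscles, where Cideb had at most 3 reads, so Nop9 reads were not counted for Cideb in muscle to any extent beyond that.

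Expression was given as FPKM, fragments per kilobase of gene and scaled to a total for each library, so levels of different genes can be set side by side. The total recovered from the values was not the number of reads on genes. At 24 h it was 14.1 M beside 16.96 M reads in the treated liver, and 16.2 M beside 17.3 M reads in the vehicle liver. Ratios between libraries include that scaling. Reads on genes numbered 16.8 to 18.9 M per liver library, 16.1 to 19.9 M per muscle library and 16.1 to 17.4 M at 24 h. Mitochondrial genes took 3.73% to 6.54%, 5.10% to 10.5% and 4.57% to 10.97% of those reads. Hepatocyte markers (6 genes, Alb among them) summed to 21590 FPKM or more in each liver at 40 d and muscle fibre markers (8 genes, Acta1 among them) to 33082 FPKM or more in each muscle, so the labelled tissues were borne out by their markers. At 40 d the first digit of a library's number was 4 or 5 in treated and 2, 3 or 6 in vehicle libraries. Whatever that digit stands for cannot be told apart from the treatment. In bulk tissue, fewer cells of a type and less RNA per cell cannot be told apart either.

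RefSeq promoters on GRCm38.p6 were searched for 7 of the 8 genes, at 9 start sites. The promoter of Cidea was not searched, so nothing is said of its motifs. The 250 bases before the start are shown for Plin2 and Cidec, the perilipin and CIDE genes of highest level in liver, and for Plin5 and Cideb, whose levels in liver differed least between treated and vehicle mice. Capitals mark the motifs found, each sought on both strands. AGGTCA is the half-site bound by many nuclear receptors. The CCAAT box is named for its letters, the letters GGGCGG make a GC box, and the letters TATAAA make a TATA box. All 4 sequences are read 5′ to 3′ on the minus strand.
Plin2, chr4:86670060-86670309: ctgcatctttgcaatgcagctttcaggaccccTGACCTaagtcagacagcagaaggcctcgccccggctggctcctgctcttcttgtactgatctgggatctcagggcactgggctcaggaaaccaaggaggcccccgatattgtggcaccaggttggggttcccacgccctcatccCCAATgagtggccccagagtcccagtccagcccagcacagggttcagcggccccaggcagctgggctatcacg
Cidec, chr6:113435761-113436010: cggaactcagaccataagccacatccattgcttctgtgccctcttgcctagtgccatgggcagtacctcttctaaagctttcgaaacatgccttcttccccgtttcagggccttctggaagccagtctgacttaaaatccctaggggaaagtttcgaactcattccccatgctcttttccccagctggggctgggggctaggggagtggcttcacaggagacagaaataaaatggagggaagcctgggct
Plin5, chr17:56117549-56117798: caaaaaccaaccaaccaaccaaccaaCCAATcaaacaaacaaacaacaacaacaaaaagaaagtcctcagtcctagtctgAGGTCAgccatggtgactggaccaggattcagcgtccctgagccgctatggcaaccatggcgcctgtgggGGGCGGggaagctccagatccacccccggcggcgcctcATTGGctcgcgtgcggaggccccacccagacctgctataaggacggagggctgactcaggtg
Cideb, chr14:55758425-55758674: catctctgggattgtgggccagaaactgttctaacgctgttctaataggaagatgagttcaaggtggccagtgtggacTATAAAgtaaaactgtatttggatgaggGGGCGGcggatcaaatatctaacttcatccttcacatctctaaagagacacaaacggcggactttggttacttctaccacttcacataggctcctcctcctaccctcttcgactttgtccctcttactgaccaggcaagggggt

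In Plin2 the half-site begins 218 bases and the CCAAT box 73 bases before the start. In Plin5 the half-site begins 170 bases before the start. Among all 32851 promoters of the table, read on both strands over the same 250 bases, 14.0% hold the half-site, 33.8% a CCAAT box, 32.7% a GC box and 12.4% a TATA box, so these matches are common ones. The half-site pair AGGTCANAGGTCA, which holds the half-site and is the form bound by PPAR with RXR, is in 0.0335% of all promoters, its looser form AGGNCANAGGNCA is in 0.338%, and the E-box CACGTG is in 6.02%. None of these 3 motifs is in the windows of the 7 genes. The windows lie close to the start, and other elements of the genes were not searched.

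Plin2, the main droplet coat of hepatocytes, was the most abundant of the 8 transcripts in liver in both groups, and Cidec came next. In treated livers the means ran in the order Plin2, Cidec, Plin5, Cideb, Plin3, Cidea, Plin4, Plin1. In vehicle livers the order was Plin2, Cidec, Cidea, Plin5, Plin3, Cideb, Plin4, Plin1. Cidea thus stood below Plin5, Cideb and Plin3 in treated livers and above them in vehicle livers. Among these 4 genes the ranges of neighbours overlapped across livers in both groups. Within a liver, Cidea was above Plin5 in 0 of 6 treated and 4 of 6 vehicle livers, above Cideb in 1 of 6 treated and 6 of 6 vehicle livers, and above Plin3 in 1 of 6 treated and 5 of 6 vehicle livers. The steps from Plin2 to Cidec and down to Plin4 and Plin1 held in each of the 6 livers of each group.

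Cidea fell in treated livers to well under the vehicle level. It ranged over 16.8 to 38.1 FPKM with a median of 24.2 in treated livers, against 39.3 to 90.4 FPKM with a median of 63.0 in vehicle livers. The groups did not overlap, although the highest treated liver (5_1, 38.1 FPKM) came close to the lowest vehicle liver (6_1, 39.3 FPKM). The mean was 25.1 ± 8.19 FPKM in treated and 63.6 ± 19.6 FPKM in vehicle livers (SD, n = 6 each). On the log2(FPKM + 1) scale the fold change, treated over vehicle, was −1.31 (SE 0.23, 95% interval −1.81 to −0.81), which limma called with a Benjamini-Hochberg adjusted p of 0.0419. An exact two-sided permutation test of the 6 against 6 livers gave p = 0.00216, the smallest that 6 against 6 allow. The call is close to its threshold. It held without treated 5_1 (limma adjusted p 0.0434), without treated 5_2 (0.0400) and without vehicle 6_1 (0.0412). It was lost on leaving out any of the other 9 livers. Without treated 4_5, 5_3, 5_4 or 5_5 the limma adjusted p was 0.0690, 0.0798, 0.0580 and 0.0847, and without vehicle 2_1, 2_3, 2_4, 2_5 or 3_2 it was 0.0642, 0.106, 0.0829, 0.0834 and 0.105. With no filter on low genes, which raised the number of genes tested to 26705, the adjusted p was 0.128. The size itself kept between −1.44 and −1.20 over the 12 fits with a liver left out.

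Cidec, the protein that enlarges droplets in white fat, was lower in most treated livers but did not pass the test. It ranged over 72.8 to 146 FPKM with a median of 83.8 in treated livers, against 135 to 203 FPKM with a median of 151 in vehicle livers. Of the treated livers, 5 lay below all vehicle livers, and treated 5_1 at 146 FPKM lay inside the vehicle range. The means were 95.03 ± 28.3 FPKM in treated and 160.0 ± 24.0 FPKM in vehicle livers (SD, n = 6 each). Their log2 fold change was −0.78 (SE 0.16), with a limma adjusted p of 0.0902. The exact permutation p was 0.00433. It was called in 1 of the 12 fits with a liver left out, the one without treated 5_1 (limma adjusted p 0.0376), and the other 11 limma adjusted p-values ran from 0.0698 to 0.191.

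Cideb, which works in droplet fusion and in loading lipid onto very low density lipoprotein, did not differ detectably between the groups. It ranged over 30.7 to 40.1 FPKM with a median of 32.7 in treated livers, against 28.4 to 41.4 FPKM with a median of 38.0 in vehicle livers. The treated range lay wholly within the vehicle range. The log2 fold change was −0.07 (SE 0.11, 95% interval −0.31 to 0.16, limma adjusted p 0.803).

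Among the perilipins, Plin2 was lower in each treated liver than in any vehicle liver. It ranged over 166 to 253 FPKM with a median of 221 in treated livers, against 281 to 436 FPKM with a median of 332 in vehicle livers. The groups were separated by a gap, between treated 5_2 at 253 FPKM and vehicle 2_4 at 281 FPKM. The means were 218 ± 31.5 FPKM in treated and 350.1 ± 69.7 FPKM in vehicle livers (SD, n = 6 each). The log2 fold change was −0.67 (SE 0.14, 95% interval −0.98 to −0.37), but its limma adjusted p over all genes was 0.0902, over the threshold. The exact permutation p was 0.00216, the smallest possible. It was called in 1 of the 12 fits with a liver left out, the one without treated 5_2 (log2 fold change −0.72, limma adjusted p 0.0471), in which calls over all genes also rose to 83 against 28. The other 11 limma adjusted p-values ran from 0.0884 to 0.202.

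The other perilipins of liver differed less between the groups. Plin3, a widely expressed coat that exchanges between droplets and cytosol, ranged over 29.9 to 38.0 FPKM (median 33.1) in treated livers and over 30.8 to 58.2 FPKM (median 44.3) in vehicle livers. All 6 treated livers were below the vehicle mean, but the vehicle livers 2_1 and 2_4 were as low as the treated ones. Its log2 fold change was −0.34 (SE 0.15, limma adjusted p 0.336, exact permutation p 0.0519). Plin4, an exchangeable coat best known from adipocytes and muscle, ranged over 5.98 to 10.8 FPKM (median 7.72) in treated livers and over 8.26 to 17.7 FPKM (median 9.84) in vehicle livers. The groups overlapped, with 3 of 6 treated livers below all vehicle livers, and the log2 fold change was −0.45 (SE 0.18, limma adjusted p 0.304, exact permutation p 0.0433). Plin5, which ties droplets to mitochondria in tissues that burn fat, ranged over 32.2 to 55.9 FPKM (median 46.2) in treated and 32.4 to 65.6 FPKM (median 52.5) in vehicle livers. The ranges of Plin5 overlapped for most of their length, and its log2 fold change was −0.15 (SE 0.16, 95% interval −0.50 to 0.21, limma adjusted p 0.734). Plin1, the coat of adipocyte droplets that holds lipolysis in check, was close to absent from liver: 5 of 6 treated and 2 of 6 vehicle livers had no read, and no liver exceeded 0.102 FPKM. A liver without a read could still hold up to 0.0420 FPKM, the value of 3 reads in the treated liver of least depth. Plin1 was not tested in liver.

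**Figure D1:**
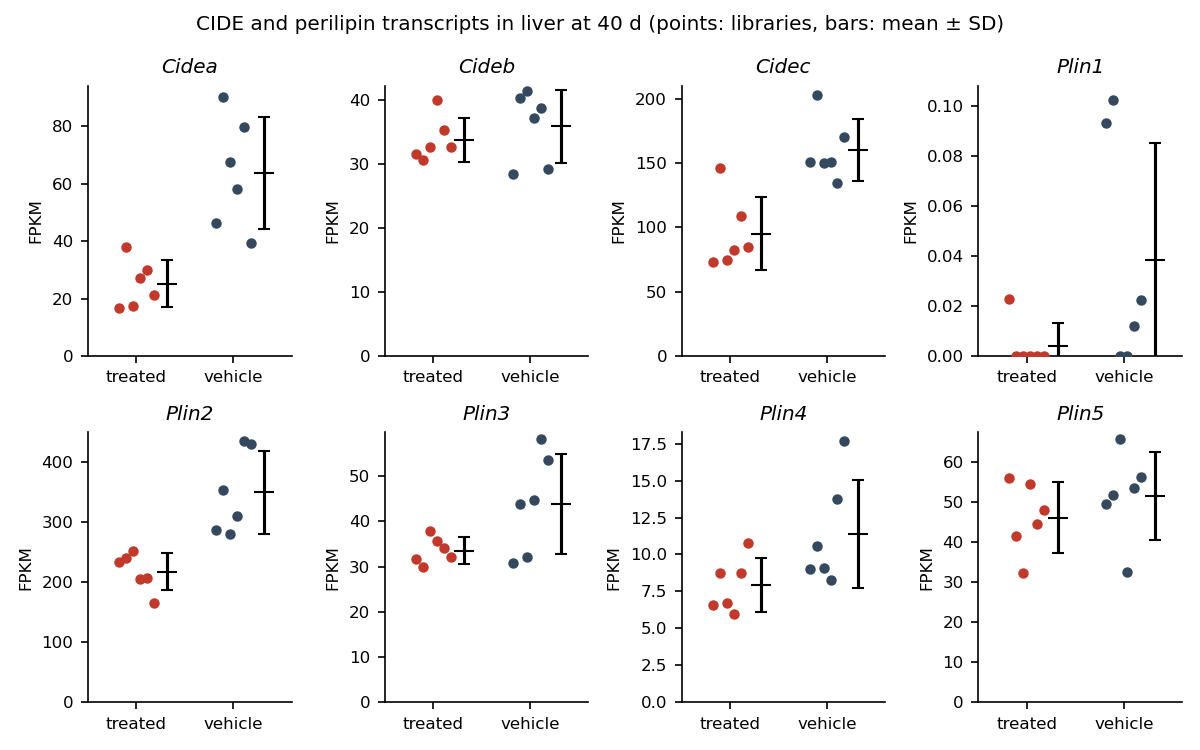
FPKM of the 8 genes in each liver at 40 d, treated on the left and vehicle on the right, with a panel and a linear axis from 0 for each gene. Points are libraries and bars are the mean ± SD (n = 6 each). The treated points of Cidea (16.8 to 38.1) and Plin2 (166 to 253) all lie below the vehicle points, those of Cidec do so except for 1 at 146, and Plin1 stays at or under 0.102.

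Of the 7 genes tested in liver at 40 d, 1 was called, lower in treated livers, where 0.155% of all 10995 genes tested were called lower and 0.255% in either direction. For 2 genes, Cidea and Plin2, the groups did not overlap, with the treated livers lower, where 0.728% of all genes had that separation downward and 1.16% in either direction. All 7 log2 fold changes were below 0, against 51.0% of all genes. Their median was −0.45, and the median of all genes was −0.0033. The unadjusted limma p was under 0.05 for 5 of the 7, all lower in treated livers, where 7.35% of all genes were lower and 13.2% differed in either direction at that limit.

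Markers of other cells were summed in the same livers. Neutrophil markers (5 genes, all detected in each treated liver) summed to 28.8 to 443 FPKM in treated and 10.8 to 18.03 FPKM in vehicle livers, with no overlap. Macrophage markers (7 genes) summed to 464 to 1873 FPKM (median 627) in treated and 423 to 610 FPKM (median 560) in vehicle livers, with the 1873 FPKM in treated 4_5. Treated means were above vehicle means for Adgre1, Cd68, Clec4f and Lyz2, and below them for Gpnmb, Itgax and Trem2. Hepatocyte markers summed to 21590 to 37711 and 30523 to 35825 FPKM, and red cell markers (4 genes) to 483 to 2380 and 346 to 1412 FPKM, in treated and in vehicle livers. White adipocyte markers (8 genes) summed to 11.005 to 24.3 FPKM in treated and 13.7 to 19.5 FPKM in vehicle livers. Fabp4 gave most of it (7.78 to 21.4 FPKM in treated and 10.5 to 14.6 FPKM in vehicle livers), and Aqp7 was at 0.979 to 1.83 FPKM in treated and 1.72 to 3.59 FPKM in vehicle livers. Adipocyte-defining Adipoq, Lep and Retn were at or under 0.313 FPKM in each liver. Hepatic Cidea and Cidec therefore came with next to no transcript from Adipoq, Lep, Retn or Plin1. The part of the neutrophil and other markers in the liver values was not tested.

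In the make-up of the families in liver, the shares of Cidea and Cideb differed most between the groups. Plin2 made up 71.1 ± 4.39% of summed perilipin FPKM in treated livers and 76.5 ± 2.12% in vehicle livers (SD, n = 6 each), with Plin5, Plin3 and Plin4 following. The summed level of the 5 perilipins was 306 ± 27.8 FPKM in treated and 457 ± 85.1 FPKM in vehicle livers. Of summed CIDE FPKM, Cidea made up 16.04 ± 1.86% in treated and 24.2 ± 5.28% in vehicle livers, and Cideb 22.8 ± 4.85% in treated and 13.9 ± 1.76% in vehicle livers. Cidec kept a share of 61.1 ± 4.21% in treated and 61.9 ± 6.44% in vehicle livers. The summed CIDE level was 154 ± 35.6 FPKM in treated and 260 ± 38.3 FPKM in vehicle livers. Shares within a family depend on one another, and they were not tested.

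**Figure D2:**
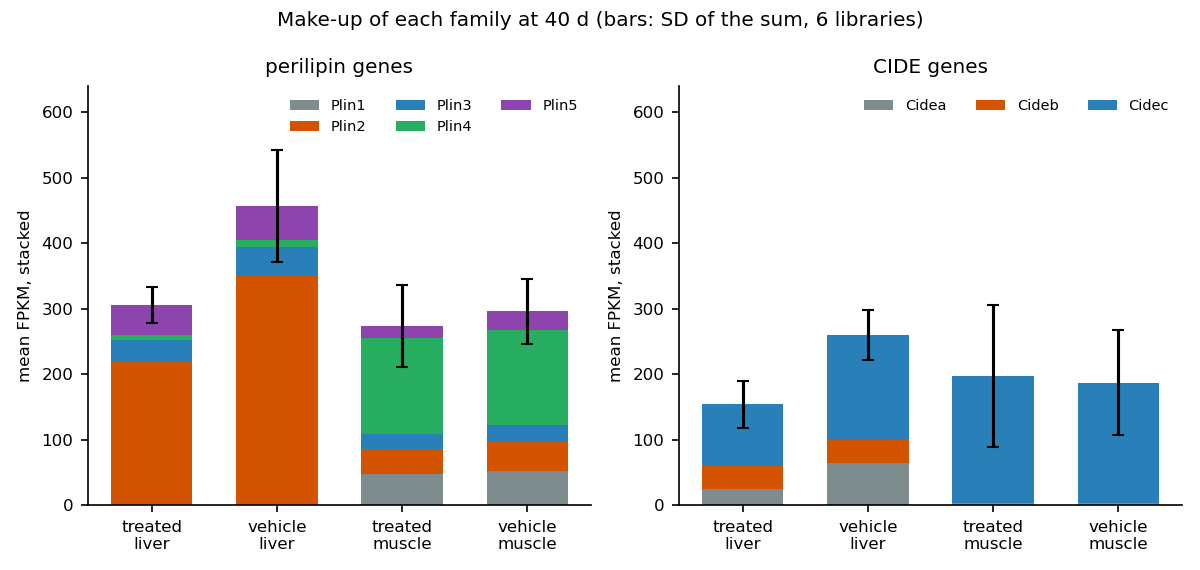
Mean FPKM of each gene at 40 d stacked by family, perilipins on the left and CIDE genes on the right, for treated and vehicle livers and muscles. Bars are the SD of the sum over 6 libraries. In liver the stacks are 306 and 457 FPKM for the perilipins and 154 and 260 FPKM for the CIDE genes in treated and vehicle mice, Plin2 fills most of the liver stack, and Cidec fills nearly all of the CIDE stack in muscle.

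Muscle held another set of these transcripts, with Cidec and Plin4 on top. In both groups the order of the means ran Cidec, Plin4, Plin1, Plin2, and in both it ended with Cidea and Cideb. Between them, Plin3 preceded Plin5 in treated muscles and followed it in vehicle muscles, and the ranges of the 2 genes overlapped. Cidec and Plin4 also overlapped in range. Cidec made up 98.3 ± 0.88% of summed CIDE FPKM in treated and 98.1 ± 1.67% in vehicle muscles (SD, n = 6 each). Plin4 made up 53.6 ± 5.76% of summed perilipin FPKM in treated and 49.0 ± 3.73% in vehicle muscles. The deposited tables of the tissues were scaled separately at 40 d, so levels are not set across them. The 24 h table holds both tissues, though the labels do not say whether its liver and muscle libraries share a mouse. Plin1 was at 186 FPKM in the treated muscle and 0 in the treated liver. It was at 81.5 FPKM in the vehicle muscle and 0.0531 FPKM in the vehicle liver. Cideb was the reverse, with 36.5 FPKM in the treated liver and 0.0448 FPKM in the treated muscle. It was at 32.3 FPKM in the vehicle liver and 0.0853 FPKM in the vehicle muscle.

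None of the 7 genes tested in muscle at 40 d passed the test, where 0.0% of all 11708 genes did. In the whole muscle table limma called 0 genes, limma voom on recovered reads called 0, and 451 genes (3.85%) had an unadjusted limma p under 0.05, 1.97% of all genes lower in treated muscles. Of the members, 0 had such a p. For no member did the groups keep apart, where 0.256% of all genes did in either direction and 0.171% with the treated muscles lower. The members' log2 fold changes lay between −0.51 and −0.01, each with a limma adjusted p of 0.999, with a median of −0.07 beside −0.0036 for all genes. All 7 were below 0, against 51.4% of all genes, but that of Plin4 was 0.01 when libraries were rescaled to their median ratio, and 5 of the 7 were above 0 in at least 1 fit with a muscle left out.

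Cidec in muscle ranged over 34.7 to 369 FPKM with a median of 195 in treated mice, against 79.3 to 300.2 FPKM with a median of 184 in vehicle mice. Both the lowest and the highest muscle were treated ones, 5_2 and 5_5. The means were 195 ± 107 FPKM in treated and 184 ± 79.9 FPKM in vehicle muscles (SD, n = 6 each), with a log2 fold change of −0.07 (SE 0.47, 95% interval −1.09 to 0.95). Without treated 5_2 it was 0.36, and it was also above 0 without vehicle 2_1, 2_3 or 2_4, so no direction is given. Cidea was low, at 1.08 to 6.78 FPKM (median 2.26) in treated and 1.45 to 4.24 FPKM (median 2.66) in vehicle muscles, with treated 5_5 the highest. Cideb had 1 read in 1 of 6 treated muscles and at most 3 reads in 3 of 6 vehicle muscles, and was not tested. A muscle without a Cideb read could hold up to 0.119 FPKM, the value of 3 reads.

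Plin4 in muscle ranged over 85.6 to 183 FPKM with a median of 152 in treated mice, against 115 to 200.4 FPKM with a median of 139 in vehicle mice. Its means were close, at 146 ± 35.0 FPKM in treated and 146 ± 32.5 FPKM in vehicle muscles (SD, n = 6 each; log2 fold change −0.01, 95% interval −0.42 to 0.40). Plin1 ranged over 15.0 to 71.6 FPKM (median 49.7) in treated and 21.7 to 92.8 FPKM (median 51.0) in vehicle muscles. Plin1 and Plin4 shared their lowest muscle, treated 5_2, and their highest, vehicle 2_3. Plin2 ranged over 21.0 to 82.0 FPKM (median 33.1) in treated and 26.9 to 58.8 FPKM (median 45.3) in vehicle muscles, and treated 5_5 at 82.0 FPKM stood alone above the rest of its group. Plin3 ranged over 19.4 to 27.3 FPKM (median 23.1) in treated and 18.01 to 35.7 FPKM (median 23.3) in vehicle muscles.

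Plin5 had the difference of greatest size in muscle, and it too missed the test. It ranged over 11.9 to 24.7 FPKM with a median of 18.2 in treated muscles, against 16.8 to 61.6 FPKM with a median of 22.1 in vehicle muscles. All 6 treated muscles were below the vehicle mean, but that mean is drawn up by vehicle 6_1 at 61.6 FPKM, and the ranges overlapped. The means were 18.1 ± 4.37 FPKM in treated and 28.5 ± 17.1 FPKM in vehicle muscles (SD, n = 6 each), and the log2 fold change was −0.51 (SE 0.28, limma adjusted p 0.999, exact permutation p 0.130). With any 1 muscle left out the log2 fold change lay between −0.62 and −0.26.

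**Figure D3:**
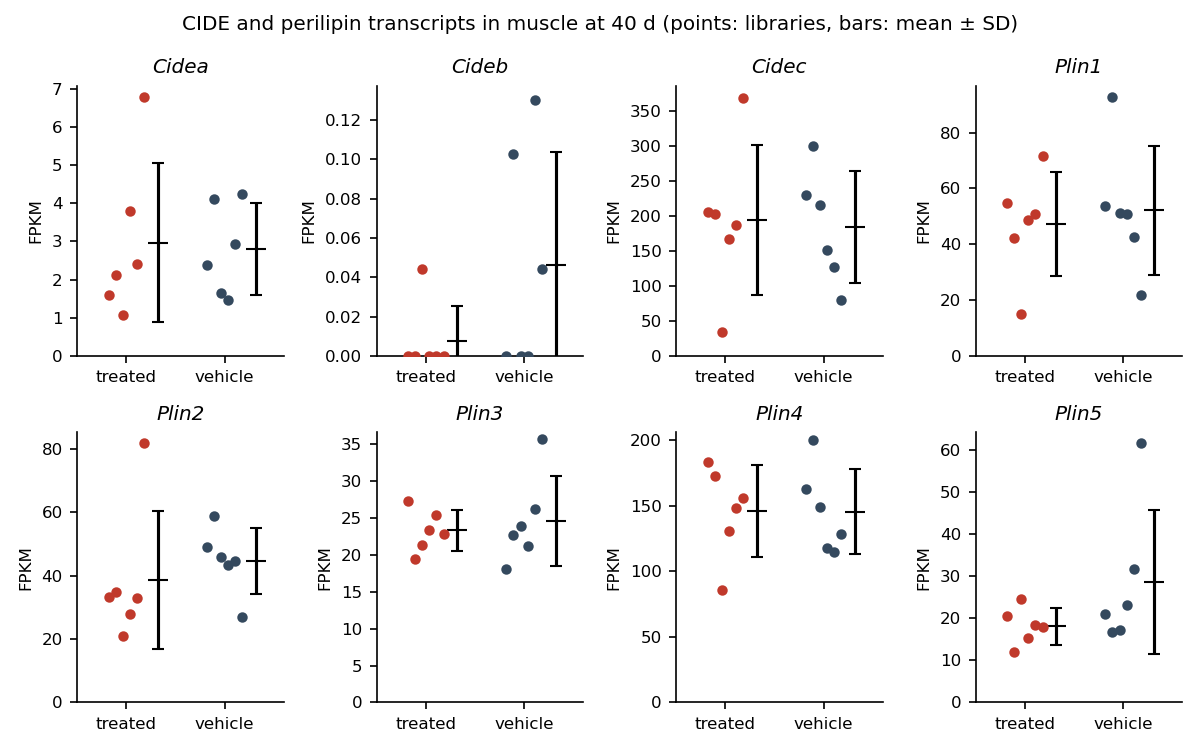
FPKM of the 8 genes in each muscle at 40 d, treated on the left and vehicle on the right, with a panel and a linear axis from 0 for each gene. Points are libraries and bars are the mean ± SD (n = 6 each). The groups overlap in each panel, treated Cidec spreads from 34.7 to 369, and 1 vehicle muscle has 61.6 FPKM of Plin5.

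White adipocyte transcripts were plentiful in the muscle libraries, and several of the droplet genes followed them from muscle to muscle. The 8 adipocyte markers, which include none of the droplet genes, were all detected in each muscle and summed to 288 to 1974 FPKM (median 1008) in treated and 483 to 1497 FPKM (median 769) in vehicle muscles. The lowest sum was in treated 5_2 and the highest in treated 5_5, the same muscles that were lowest and highest for Cidec. Adipoq alone spanned 37.9 to 281 FPKM in treated and 71.4 to 269 FPKM in vehicle muscles. Over the 12 muscles, on log2 scales, 7 relations to this sum were computed. The permutation p-values, from 100000 resamples, are printed unadjusted. With Benjamini-Hochberg adjustment over the 7, the permutation p of r was 0.008925 or less for Cidec, Plin1, Plin4 and Plin2. For the other genes it was 0.0799 or more. The adjusted permutation p of rho was 0.0125 or less for Cidec, Plin1 and Plin4, 0.0246 for Plin5 and 0.144 or more for the others. Cidec had Pearson's r = 0.95 (permutation p = 2.0e-05) and Spearman's rho = 0.804 (permutation p = 0.00218), and r was 0.881 without treated 5_2 and 5_5, the 2 muscles farthest from the median sum. Plin1 had r = 0.924 (permutation p = 9.0e-05) and rho = 0.804 (permutation p = 0.00250), and r = 0.887 without them. Plin4 had r = 0.794 (permutation p = 0.00258) and rho = 0.762 (permutation p = 0.00536), and r = 0.737 without them. For these 3 genes r lay between 0.809 and 0.986 within the 6 treated and between 0.814 and 0.953 within the 6 vehicle muscles.

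The other droplet genes had lower pooled values of r. Plin2 had r = 0.757 (permutation p = 0.00510) and rho = 0.497 (permutation p = 0.103). Its pooled r fell to 0.360 without treated 5_2 and 5_5. Within the groups its r was 0.845 in the 6 treated and 0.875 in the 6 vehicle muscles, and the vehicle muscles do not include 5_2 or 5_5. Cidea had r = 0.560 (permutation p = 0.0571) and rho = 0.392 (permutation p = 0.208), with r = −0.07 without them. Plin3 had r = −0.14 (permutation p = 0.660) and rho = 0.03 (permutation p = 0.939), with r = −0.40 without them. Plin5 ran the other way, with r = −0.56 (permutation p = 0.0685) and rho = −0.70 (permutation p = 0.0141), and r = −0.78 without them. Within the groups its r was −0.45 in treated and −0.85 in vehicle muscles. Markers of brown adipocytes (5 genes) summed to 3.31 to 4.59 FPKM in treated and 2.97 to 4.54 FPKM in vehicle muscles, and Ucp1, which defines that cell, was at or under 1.03 FPKM. The part of adipocyte content in the difference between treated and vehicle muscles was not tested.

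**Figure D4:**
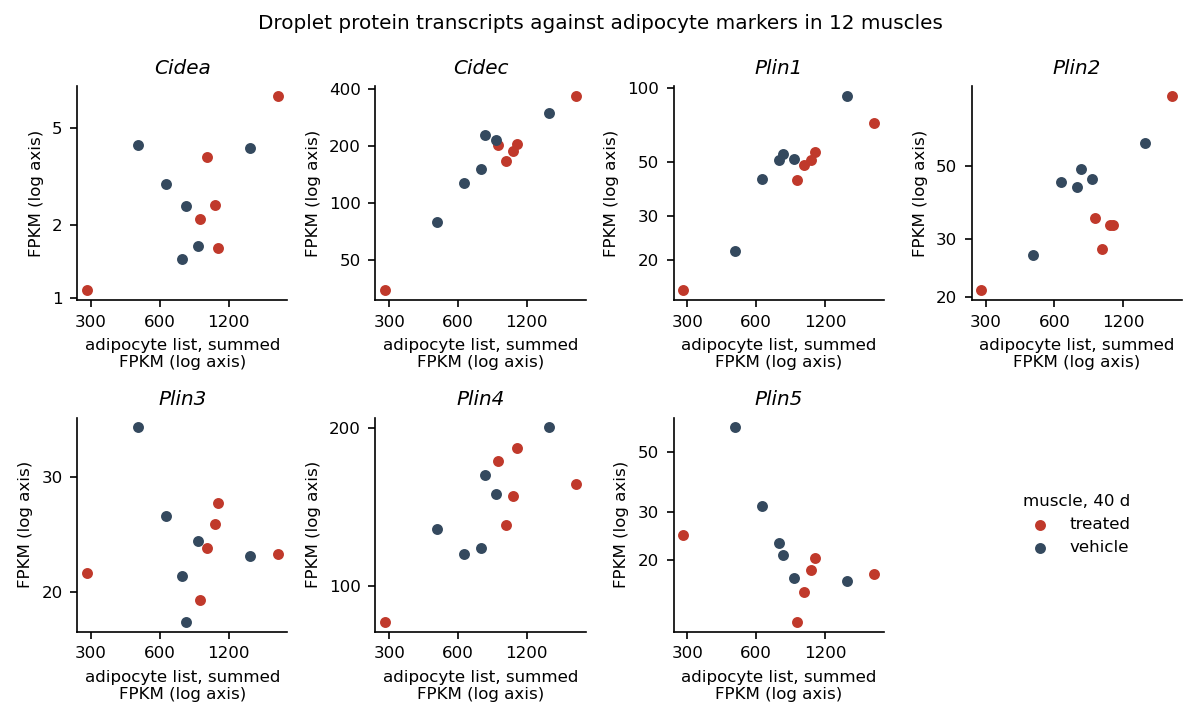
FPKM of 7 droplet genes against the summed FPKM of 8 white adipocyte markers in 12 muscles at 40 d, with both axes on log scales and a point for each library, treated and vehicle in separate colours. Cidec (r = 0.95), Plin1 (r = 0.924) and Plin4 (r = 0.794) climb with the sum, while Plin5 (r = −0.56) slopes down.

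Whether the effect at 40 d differed between the tissues was tested for the 6 genes that passed the filter in both, as the liver effect minus the muscle effect in a limma fit. None was called, where 0.0107% of the 9367 genes tested were. Cidea had the difference of greatest size, −1.29 on the log2 scale (95% interval −2.10 to −0.48), from −1.31 in liver and −0.02 in muscle, with a limma adjusted p of 0.554. For Cidec it was −0.71 (95% interval −1.80 to 0.38) and for Plin2 −0.36 (95% interval −1.01 to 0.29), both with a limma adjusted p of 0.997. Plin5 was the only one of the 6 with a positive difference, at 0.36 (95% interval −0.33 to 1.05). A fall of Cidea in liver and none called in muscle is therefore not shown to be a difference between the tissues once all genes are taken into account.

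At 24 h each tissue had 1 treated and 1 vehicle library, so that no test was possible and intervals cover counting error only. In liver the treated library was higher for 7 of the 8 genes. Cidea stood at 28.9 FPKM (474 reads) in the treated and 13.1 FPKM (247 reads) in the vehicle liver, a ratio of 2.21 with a counting interval of 1.89 to 2.59. It was the only liver member more than 1.5-fold higher, where 3.48% of the 12923 genes with at least 1 FPKM were (6.97% in either direction). The treated value of Cidea lies inside the range of treated livers at 40 d, 16.8 to 38.1 FPKM. The vehicle value lies below all 12 livers at 40 d, treated ones included, though in a table scaled separately. Cidec was at 185 and 144 FPKM, Plin2 at 292 and 228 FPKM and Plin3 at 53.7 and 42.6 FPKM in the treated and the vehicle liver. The ratios of these 3 genes were 1.26 to 1.29. Plin5 was at 47.9 and 40.5 FPKM, Cideb at 36.5 and 32.3 FPKM and Plin4 at 25.3 and 24.5 FPKM in the treated and the vehicle liver. Log2 ratios were above 0 for 57.3% of all genes, and that of Plin4 was 0.05 as deposited and −0.05 after rescaling to the median ratio. The direction of Cidea, Cidec, Plin2 and Plin3 at 24 h was thus the opposite of that at 40 d, in libraries of which there is 1 to a group.

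In muscle at 24 h the treated library held more of 7 of the 8 genes (47.0% of all genes had a log2 ratio above 0), and 6 were more than 1.5-fold higher, where 7.52% of 12878 genes were (12.9% in either direction). Cidea was at 19.5 FPKM (341 reads) in the treated and 1.14 FPKM (21 reads) in the vehicle muscle, a ratio of 17.1 with a counting interval of 10.98 to 27.9. The treated value lies above the 12 muscles at 40 d, which reached 6.78 FPKM, though in a table scaled separately. Cidec was at 619 and 287 FPKM, Plin1 at 186 and 81.5 FPKM and Plin2 at 109 and 49.2 FPKM in the treated and the vehicle muscle, ratios of 2.15 to 2.28. Plin4 was at 334 and 202 FPKM, Plin5 at 33.7 and 17.97 FPKM and Plin3 at 24.5 and 21.2 FPKM in the treated and the vehicle muscle. The adipocyte markers differed in the same direction, with a sum of 3177 FPKM in the treated and 1585 FPKM in the vehicle muscle and all 8 higher in the treated one. The muscle fibre sum was 28328 FPKM in the treated and 43500 FPKM in the vehicle muscle, but its genes did not all go that way. Acta1, Ckm, Myh4, Tnnt3 and Tnni2 were lower in the treated muscle. Myh2 (224 FPKM in the treated and 36.8 FPKM in the vehicle muscle), Mb (1380 and 571 FPKM) and Myh7 (0.139 and 0.066 FPKM) were higher in it. Ucp1 was at 1.22 FPKM in the treated muscle and listed at 0 in the vehicle muscle, and the brown adipocyte sum was 7.29 and 4.82 FPKM in them. The part of adipocyte content in these ratios was not tested.

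**Figure D5:**
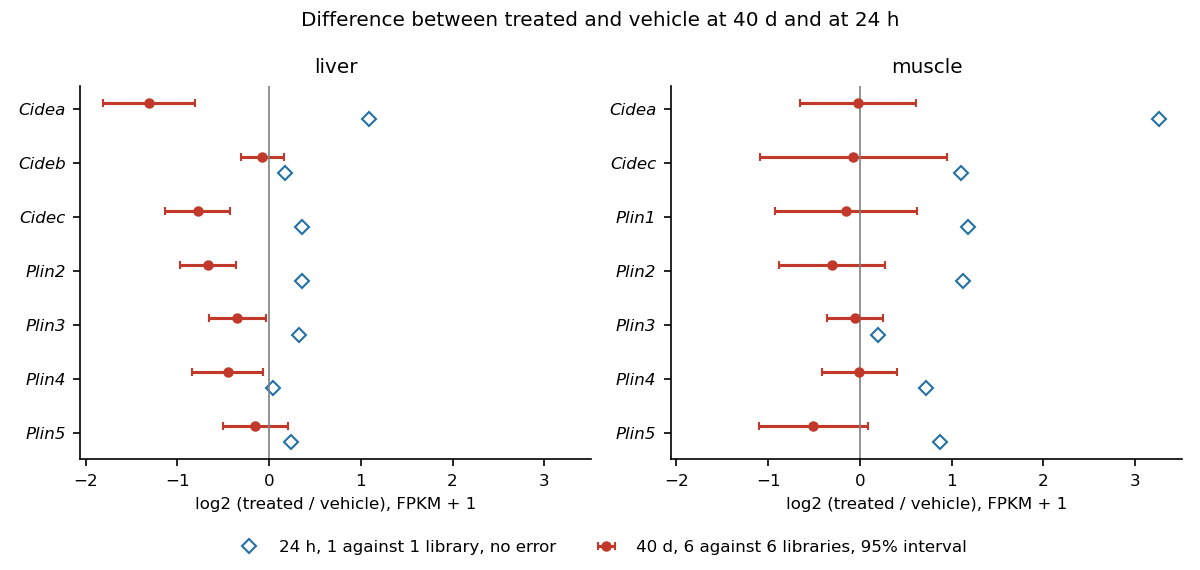
Log2 ratio of treated over vehicle on the FPKM + 1 scale for each tested gene in liver (left) and muscle (right). Filled circles with bars are the 40 d estimates from 6 against 6 libraries with 95% intervals, and open diamonds are the 24 h ratios of 1 against 1 library. In liver Cidea is at −1.31 at 40 d and 1.09 at 24 h, and in muscle the intervals at 40 d all include 0 while Cidea is at 3.26 at 24 h.

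Other genes of droplet metabolism were read from lists. Over all genes tested in liver, 0.155% were called lower and 0.255% in either direction. For 0.728% the groups did not overlap with the treated livers lower, and 51.0% had negative log2 fold changes. The median of all genes was −0.0033. Of 11 genes of droplet formation and triglyceride assembly, 1 was called in liver, lower in treated mice, and 9 had negative log2 fold changes, with a median of −0.25. The called gene was Mogat1, an acyltransferase that makes diacylglycerol and is known to be raised in fatty liver. It was at 4.24 ± 1.07 FPKM in treated and 9.81 ± 2.38 FPKM in vehicle livers (SD, n = 6 each), with no overlap between 3.17 to 6.11 FPKM in treated and 7.51 to 13.1 FPKM in vehicle livers. Its log2 fold change was −1.04 (SE 0.15, limma adjusted p 0.0234). None of 9 lipolysis genes was called, with 7 negative and a median of −0.30. Abhd5, the lipase activator that Plin1 and Plin5 hold on the droplet, had the smallest limma adjusted p of them, 0.141. It was at 5.81 FPKM in treated and 7.21 FPKM in vehicle livers. Its groups did not overlap either, with 5.01 to 6.39 FPKM in treated and 6.51 to 7.99 FPKM in vehicle livers. None of 10 droplet-bound proteins was called, with 6 negative and a median of −0.04. That list shares 3 genes, Pnpla2, G0s2 and Hilpda, with the lipolysis list. Among these Hsd17b13, an abundant enzyme of hepatocyte droplets, was at 220 ± 46.0 FPKM in treated and 338 ± 34.4 FPKM in vehicle livers (SD, n = 6 each, limma adjusted p 0.0935).

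Of 12 regulators of lipid genes, 10 were tested in liver, 5 were negative and 0 were called, with a median of −0.0032. Of all liver genes 51.0% were negative, with a median of −0.0033. Pparg, the receptor known to drive Cidea and Cidec in fatty liver, was at 9.96 ± 1.84 FPKM in treated and 12.2 ± 2.85 FPKM in vehicle livers (SD, n = 6 each), a log2 fold change of −0.26 with a limma adjusted p of 0.463. Nr1h3, a receptor for oxysterols, had 62.3 FPKM in treated and 52.6 FPKM in vehicle livers (limma adjusted p 0.406). In muscle no gene of the 4 lists was called, with a smallest limma adjusted p of 0.999. There 9 of 10 tested genes of droplet formation and triglyceride assembly were negative, against 51.4% of all muscle genes. Their median was −0.26, beside −0.0036 for all genes. Mogat1, the gene called in liver, was not among those tested in muscle. The medians in muscle were −0.07 for lipolysis, 0.04 for droplet-bound proteins and 0.03 for regulators.

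Within the groups, the members did not all vary together from library to library. After each library was centred on its group mean, Pearson's r over the 12 livers was 0.62 between Cidea and Cidec, 0.60 between Cidea and Cideb and 0.73 between Plin2 and Plin3, but −0.01 between Cidea and Plin2 and 0.07 between Cidec and Plin2. The genes that tracked a member most closely in liver were Acox2 for Plin5 (r = 0.96), Dnajc22 for Cideb (r = 0.94), Eif3b for Cidea (r = 0.91), Ushbp1 for Cidec (r = 0.91), Tcf7 for Plin2 (r = 0.91), Pdgfa for Plin3 (r = 0.88) and Masp1 for Plin4 (r = 0.87). In muscle they were Car5b for Plin1 (r = 0.99), Aldh1l1 for Cidec (r = 0.98), Pgd for Plin2 (r = 0.98), Trap1 for Plin5 (r = 0.96), Lrrc58 for Plin4 (r = 0.95), Tinagl1 for Plin3 (r = 0.94) and Anxa6 for Cidea (r = 0.93). Also in muscle, r was 0.95 between Cidec and Plin1, 0.85 between Cidec and Plin4 and −0.65 between Cidec and Plin5. The r of each closest gene is the highest out of about as many genes as were tested in its tissue, which is not so for the pairs of members. All these values describe the 12 libraries of a tissue alone.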

How the data were processed

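Per the file headers, the authors deposited FPKM values in 3 tables, 1 for liver and 1 for muscle at 40 d and 1 for both tissues at 24 h, with 28 libraries in all. Per the labels' protocols, RNA was extracted with Trizol and NEBNext Ultra kits gave the libraries. The submitters' processing notes name the builds GRCm38 and mm10. The aligner, the counter and any strand setting were not given in the sources used here. Each table had a scaling of its own, so each effect of treatment was taken within a table, and levels were not tested across tables.

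Every deposited FPKM value (100%, tolerance 0.01) came to a whole number of reads. Recovered reads served for depths (16.1 to 19.9 M per library), counting intervals and a voom alternative. A gene was tested if 6 or more of a tissue's 12 libraries reached 1 FPKM. The test was limma's moderated test with trend (limma 3.58.1 in R 4.3.3) on log2(FPKM + 1), a scale that understates changes of low genes. It was two-sided, 6 against 6, with Benjamini-Hochberg adjustment over all genes tested and a threshold of 0.05. Single genes also had an exact permutation test over all relabellings. A limma contrast over 24 libraries set the effect within the liver table against the effect within the muscle table. At 24 h, with 1 library to a group, ratios carry exact binomial 95% intervals for counting error only. The fit was tested on simulated data.

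Alternatives were a pseudocount of 0.1, no filter, a mean of at least 5 FPKM, rescaling to the median ratio, voom, the label number as a block, and leaving out each library. The labels number the libraries but do not say that a number stands for a mouse, and say nothing of cultures or cages. If libraries of a group were not separate mice, p-values measure technical spread. Promoters came from RefSeq (GRCm38.p6) and exon overlaps from GENCODE. Genes named are the 8 members, the called genes of each list or those of smallest p (at most 3), and the genes most correlated with each member. Members, lists and tests were chosen with earlier results of these data known. Software was Python 3.11.15 with SciPy 1.17.1, pandas 2.3.3, NumPy 2.4.6 and, for figures, matplotlib 3.10.9.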

Additional observations from a re-analysis of the deposited data

Results flagged for a closer look

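Within 28 sets of 4 or more libraries, tested on the log2(FPKM + 1) scale, 3 values lay far from the rest of their group, and chance alone picks about 1 in 20 such groups. All 3 were treated muscles at 40 d. Cidec was at 34.7 FPKM and Plin1 at 15.0 FPKM in treated 5_2, the muscle with the smallest adipocyte sum. Plin2 was at 82.0 FPKM in treated 5_5, the muscle with the highest adipocyte sum.

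For 6 values the 24 h ratio had the opposite sign to all 6 treated libraries at 40 d set against the vehicle mean. This difference was not tested because 24 h has 1 library to a group. No share of all genes is given for this rule, so whether the count is unusual is not known. At 24 h, 57.3% of all liver genes and 47.0% of all muscle genes had a log2 ratio above 0. In liver the 24 h log2 ratio was 1.09 for Cidea, 0.36 for Cidec, 0.35 for Plin2, 0.33 for Plin3 and 0.046 for Plin4, while all 6 treated livers at 40 d lay below the vehicle mean. For Cidea the 24 h vehicle liver (13.1 FPKM) was below every liver at 40 d, in a table scaled separately. After rescaling to the median ratio the log2 ratio was 0.99 for Cidea, 0.26 for Cidec, 0.26 for Plin2, 0.23 for Plin3 and −0.05 for Plin4. The counting interval of the Plin4 ratio was 0.97 to 1.10. In muscle the 24 h log2 ratio was 0.87 for Plin5, while all 6 treated muscles at 40 d lay below the vehicle mean.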

How the results depend on the processing

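In liver at 40 d, 1 member was called as reported, 0 with no filter on low genes and 0 to 2 with a liver left out. Over all genes the count was 28, 0 with no filter and 0 to 83 with a liver left out (83 without treated 5_2). A pseudocount of 0.1, a mean of at least 5 FPKM, rescaling and voom kept the Cidea call, with limma adjusted p of 0.0308 to 0.0388. In muscle no member was called under any alternative. With a muscle left out the log2 fold changes ran from −0.31 to 0.36 for Cidec, −0.081 to 0.14 for Plin4, −0.38 to 0.13 for Plin1, −0.13 to 0.057 for Plin3 and −0.24 to 0.14 for Cidea, and rescaling gave 0.010 for Plin4. The cause was not tested. Over all muscle genes the count was 0 as reported and 0 to 1 otherwise.

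Liver and muscle libraries share label numbers. Over the 12 numbers, deviations from the group means correlated between the tissues at −0.08 to 0.46, with 7 over 0.1 and 7 highest with their own number. That hints at shared mice, but the labels do not state it and not all numbers were over 0.1, so the fit reported has no block. With the label number as a replicate block, 0 members were called for the tissue difference, as without it, and 1 gene in all.

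The 24 h ratios have no replicates. At 40 d, genes near 1 FPKM rest on few reads, and Plin1 in liver and Cideb in muscle had too few to test.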
